A study of Caenorhabditis elegans with 2 samples.

Results

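The Hsp70, Hsp60, Hsp110 and CDC-48 genes examined here are 9 protein-coding genes of the nematode Caenorhabditis elegans, out of 19973 on its nuclear chromosomes. They were chosen by family, and with the peak values of these libraries known, so their counts and signals are given as a description with no test. They are hsp-1, hsp-70, hsp-3, hsp-4 and hsp-6 (Hsp70 family), hsp-60 (Hsp60), hsp-110 (Hsp110), and cdc-48.1 and cdc-48.2 (AAA ATPases related to human p97). The data are lists of ChIP-seq peaks, stretches of the genome enriched among DNA fragments that were precipitated together with a protein of interest. All samples were early embryos of strain OP605, genotype unc-119(tm4063) III with the transgene wgIs605, collected 1 hour after synchronization by egg bleaching. The transgene expresses F13C5.2, annotated as a bromodomain protein, with a C-terminal GFP-FLAG tag, and the antibody was directed against GFP. The series has 1 group of 2 biological replicates, numbered 2 and 3, from this 1 transgenic line, both sexes pooled. An untagged strain was not analysed here, so non-specific recovery was not separated from binding of the tagged protein.

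Chaperones of the Hsp70 family bind unfolded stretches of other proteins and release them in a cycle driven by ATP. J-domain proteins start that cycle by stimulating ATP hydrolysis, and nucleotide exchange factors such as Hsp110 and BAG proteins complete it. Hsp60 encloses proteins in a barrel inside mitochondria, with Hsp10 as its lid. CDC-48 unfolds ubiquitinated proteins and pulls them out of membranes and complexes, for example during degradation of misfolded proteins from the endoplasmic reticulum (ER). Some of these genes are expressed at all times, while others are switched on by heat through the factor HSF-1, or by stress in the ER or mitochondria. HSF-1 binds heat shock elements, which are alternating GAA and TTC units.

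For each replicate, and for both replicates together (the pooled list), the authors deposited 30000 ranked entries, described as peaks and background. All entries are called peaks here, although those of low rank can be background. The deposited −log10 q-value, higher where enrichment is more significant, reached 3.53 in the pooled list and is given below for weak entries. The authors also deposited 1850 peaks thresholded by the irreproducible discovery rate (IDR), a procedure that compares the ranks of peaks between replicates. The IDR peaks are the 1850 highest signals of the pooled list, from 611 down to 77.9. The signal is a score from the authors' peak caller, and as the sources used here do not state its scale, it is compared only within a list. The read depth is unknown. Each annotated 5′ end was given a promoter window of 1000 bp on its upstream and 200 bp on its downstream side. The tagged gene F13C5.2 itself had an IDR summit 366 bp upstream of its 5′ end (signal 355, rank 22), which stood at rank 123 of the replicate 2 list and rank 5 of the replicate 3 list, and the peak lists cannot tell the transgene from the chromosomal copy.

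Of the 9 genes, 6 had an IDR summit in a promoter window, against 8.51% of all protein-coding genes. They were cdc-48.1, hsp-1, hsp-60, hsp-110, hsp-3 and hsp-6, in order of signal. The other members, hsp-70, hsp-4 and cdc-48.2, had none. At 3 of the 6, another gene had the nearest 5′ end, so 3 members were themselves nearest to the summit, against 6.13% of all protein-coding genes. The same 6 members had a promoter summit among the 1850 top-ranked peaks of replicate 2, where the share of all genes was 8.9%, and among those of replicate 3, where it was 7.36%. In the full list of 30000 pooled entries, background included, 8 members had a promoter summit, against 39.2% of all genes. All 9 did in the full list of replicate 2 (41.1% of all genes) and 7 in that of replicate 3 (39.6%). Since these peaks chose the members, nothing is read from these counts. The lowest signal of the IDR list, 77.9, fell in a wide gap between members, of which the nearest above it was hsp-6 (114, rank 782) and the nearest below it cdc-48.2 (39.7, rank 6732).

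**Figure D1:**
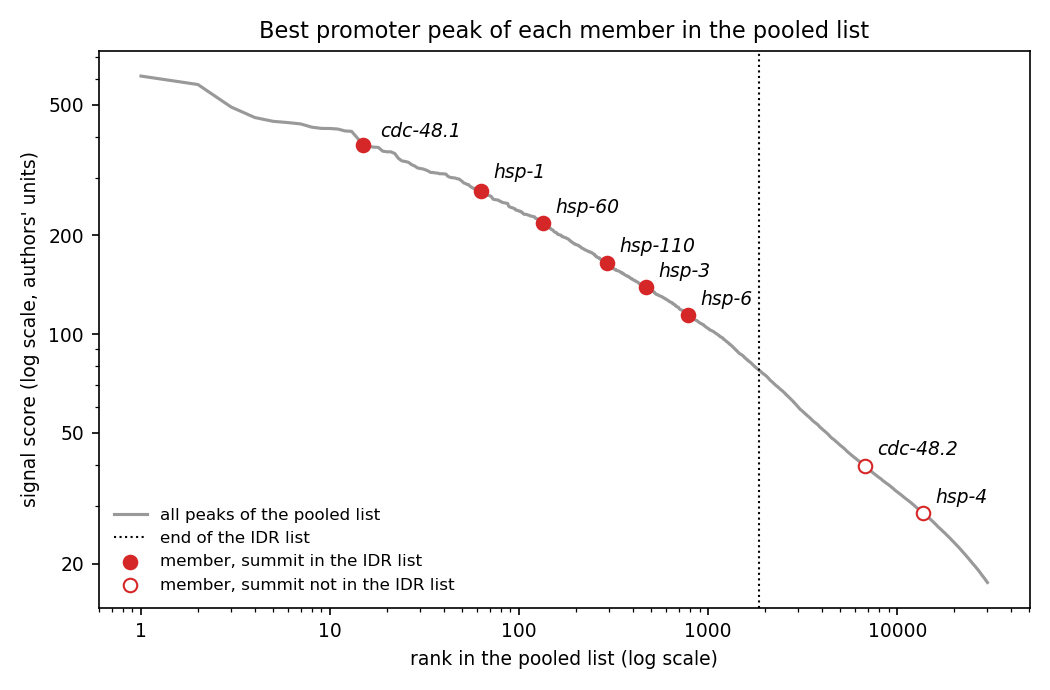
Signal score of every pooled-list peak (grey line, authors' units, log scale) against its rank (log scale), with the best promoter peak of each member as a circle, filled where it is in the IDR list. The 6 filled circles run from cdc-48.1 at rank 15 to hsp-6 at rank 782, open circles mark cdc-48.2 (rank 6732) and hsp-4 (rank 13736), and hsp-70 has no peak to plot.

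By the cellular place of the proteins, 3 of the 5 genes for cytosolic and nuclear proteins had an IDR summit in a promoter window. So did 1 of the 2 for ER proteins and 2 of the 2 for mitochondrial proteins, against 8.51% of all protein-coding genes. The summits at both mitochondrial genes and at hsp-110 were nearest to the 5′ end of another gene. Of the 7 genes grouped as constitutive, 6 had an IDR summit, and of the 2 grouped as stress-induced, 0. Nothing is read from this split, since the members were chosen with these peaks known. The stress-inducible pair F44E5.4 and F44E5.5, which are not members, did have an IDR summit (rank 593). The grouping follows general knowledge of the genes and is coarse, since hsp-6 and hsp-60 are also raised by mitochondrial stress and hsp-3 by ER stress. No expression was measured in these samples.

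The strongest member was cdc-48.1, on chromosome II (10560036 to 10563407, minus strand). Its IDR peak spanned 10563446 to 10563712, with the summit 174 bp upstream of the only annotated 5′ end. The peak had a signal of 376 in the pooled list (rank 15), 199 in replicate 2 (rank 12) and 181 in replicate 3 (rank 23). The replicate summits lay 0 and 2 bp from the pooled summit, so both lists placed the peak at the same point. Among the 1255 IDR peaks with a promoter summit it ranked 9 by signal, and no other gene's window held it. The snoRNA genes C06A1.8 and C06A1.9 lie inside cdc-48.1, and no tRNA, snoRNA or other annotated non-coding gene lay within 500 bp of the summit.

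Its paralog cdc-48.2 encodes the other CDC-48 protein of the worm and lies on the same chromosome (8138496 to 8141230, plus strand). The aligned coding sequences of cdc-48.1 and cdc-48.2 are 76.6% identical. The best promoter peak of cdc-48.2 in the pooled list had a signal of 39.7 (rank 6732, −log10 q-value 0.82), 177 bp upstream of the 5′ end. Its best promoter peak ranked 9894 in replicate 2 (signal 18.9, 153 bp upstream) and 1882 in replicate 3 (signal 44.9, 697 bp upstream), which is just past the 1850 peaks of a list as long as the IDR list. The replicates therefore placed their strongest summit at different points of the cdc-48.2 window, unlike at cdc-48.1. A stronger pooled peak (signal 54.5, rank 3574) lay 1028 bp upstream, just outside the window and closer to the 5′ end of ctns-1, and it ranked 1547 in replicate 2.

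Among the cytosolic Hsp70 genes, hsp-1 encodes the constitutive Hsp70 and hsp-70 a heat-inducible one. Their aligned coding sequences are 65.7% identical. At hsp-1, on chromosome IV (17278959 to 17281330, plus strand), the IDR peak had a summit 370 bp upstream of the 5′ end (peak 17278465 to 17278708). Its signal was 273 in the pooled list (rank 63), 139 in replicate 2 (rank 51) and 131 in replicate 3 (rank 90). Both replicates placed it within 20 bp of the pooled summit and among their first 100 peaks. A second, overlapping pooled peak at 166 bp upstream was much lower (signal 57.9, rank 3199), and it ranked unevenly, with nearby summits at rank 2221 in replicate 2 and rank 18217 in replicate 3. The non-coding RNA gene F26D10.23 ended 87 bp from the main summit, on the upstream side.

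The gene hsp-70, on chromosome I (9320325 to 9322519, minus strand), had no pooled summit in its promoter window. Replicate 2 held 2 weak summits there, 121 bp downstream (signal 21.9, rank 7005) and 190 bp upstream (signal 17.6, rank 11706) of the 5′ end, and replicate 3 held none. The −log10 q-values of these replicate 2 summits were 0.62 and 0.3. The gene lies within the span of uggt-2, which is transcribed from the other strand. The only pooled summit inside hsp-70 or within 2500 bp of it (signal 36.4, rank 8128) lay past its 3′ end at 9320105, between 2 tRNA genes at 9319965 to 9320036 and 9320178 to 9320249.

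A stress-inducible Hsp70 pair outside the 9 genes did have an IDR summit. F44E5.4 and F44E5.5, divergent genes on chromosome II with coding sequences that are 100% identical over 1935 bp, have 5′ ends 351 bp apart. A single IDR summit lay between them, 144 bp from F44E5.4 and 207 bp from F44E5.5 (signal 128, rank 593; peak 11759351 to 11759568). It ranked 563 in replicate 2 (signal 65.4) and 717 in replicate 3 (signal 66.6). The summit lies in the promoter windows of both genes, so the peak cannot be given to either gene alone. The pair is no member and was singled out after its value was seen.

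**Figure D2:**
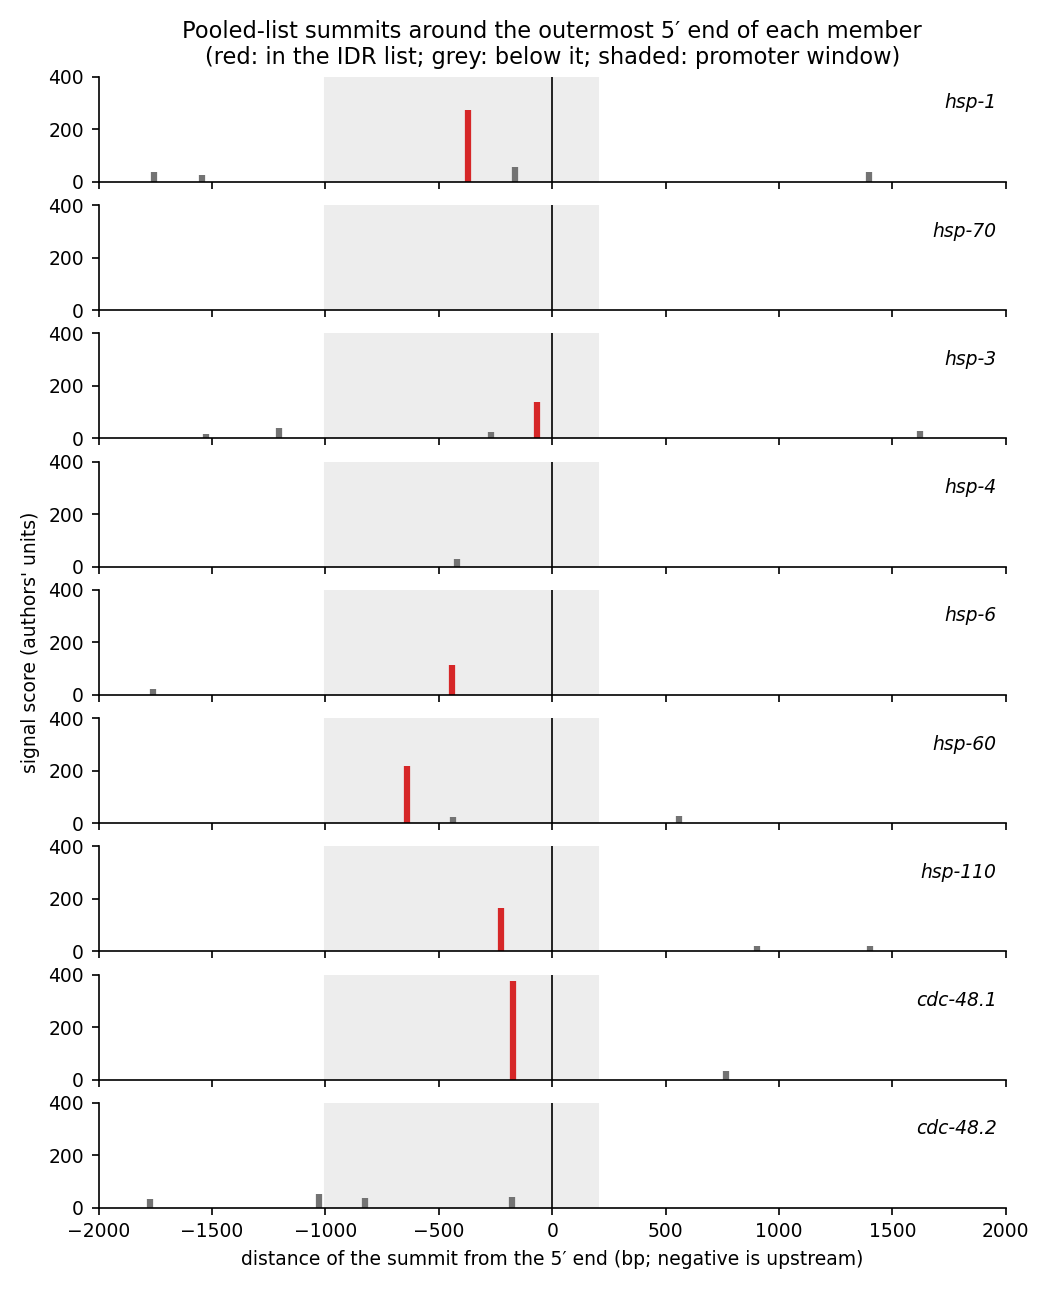
Signal score (authors' units) of every pooled-list summit within 2000 bp of the outermost 5′ end of each member, by distance in bp along the gene's own direction, with IDR peaks in red, lower peaks in grey and the promoter window shaded. Each of the 6 members with a red bar has 1, from 640 bp (hsp-60) to 65 bp (hsp-3) upstream, while hsp-70, hsp-4 and cdc-48.2 have low grey bars or none.

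The ER Hsp70 proteins, homologs of mammalian BiP, are encoded by hsp-3 and hsp-4. Their aligned coding sequences are 77.7% identical, and hsp-4 is widely used as a reporter of ER stress. At hsp-3, on chromosome X (6089028 to 6092124, minus strand), the IDR summit lay 65 bp upstream of the outermost 5′ end (peak 6091971 to 6092406). The signal was 139 in the pooled list (rank 468), 71.7 in replicate 2 (rank 443) and 73.9 in replicate 3 (rank 539). The hsp-3 summit was the closest to a 5′ end of the 6, against a median of 193 bp upstream over the 1255 IDR promoter summits (quartiles -339.5 and -106.5 bp from the nearest 5′ end).

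At hsp-4, on chromosome II (7350112 to 7352645, minus strand), the best pooled summit lay 418 bp upstream with a signal of 28.5 (rank 13736, −log10 q-value 0.34). Replicate 2 held low summits at 214 bp (rank 11117) and 420 bp upstream (signal 16.7, rank 13025), and replicate 3 held none in the window. The hsp-3 peak thus stood among the first 600 in every list, whereas the hsp-4 peaks ranked 11117 or lower, or were missing.

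Mitochondrial members were both occupied, each from a summit that it shares with a divergent gene. For hsp-60, on chromosome III (1619742 to 1625803, plus strand), the IDR summit lay 640 bp upstream of its nearest 5′ end and 173 bp upstream of that of Y22D7AL.10, annotated as the mitochondrial 10 kDa heat shock protein (Hsp10). The 5′ ends of both genes are 813 bp apart. The peak (1619065 to 1619250) had a signal of 218 in the pooled list (rank 133), 116 in replicate 2 (rank 105) and 102 in replicate 3 (rank 214). Genes for the Hsp60 barrel and its Hsp10 lid therefore share 1 strong peak, which lies nearer to the Hsp10 gene. With a window of 500 bp upstream to 100 bp downstream the peak no longer counted for hsp-60, whose best promoter peak then had rank 21096.

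For hsp-6, the mitochondrial Hsp70 gene on chromosome V (4824124 to 4826760, minus strand), the IDR summit lay 444 bp upstream. It lay 156 bp upstream of C37H5.5, annotated as a nucleolar complex protein 3 homolog, whose 5′ end is 600 bp from that of hsp-6. The signal was 114 in the pooled list (rank 782), 48.5 in replicate 2 (rank 1225) and 69.4 in replicate 3 (rank 648). It was the weakest of the 6 and the only one that ranked higher in replicate 3 than in replicate 2. Overlapping non-coding RNA genes on opposite strands, C37H5.15 (4827078 to 4827276) and C37H5.16 (4826993 to 4827264), both cover this summit. Their part in the peak was not tested.

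The Hsp110 gene hsp-110, on chromosome III (8443910 to 8446909, minus strand), shared its summit with rpn-3, a proteasome subunit gene. The summit lay 227 bp upstream of hsp-110 and 217 bp upstream of rpn-3, nearly midway between 5′ ends that are 444 bp apart, so the nearest-gene rule gives it to rpn-3 by 10 bp. The peak (8447117 to 8447232) had a signal of 165 in the pooled list (rank 292), 94.3 in replicate 2 (rank 197) and 68.4 in replicate 3 (rank 674). The peak at hsp-110 ranked higher in replicate 2 than in replicate 3. A short non-coding RNA gene, C30C11.14, lay 41 bp from the summit.

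**Figure D3:**
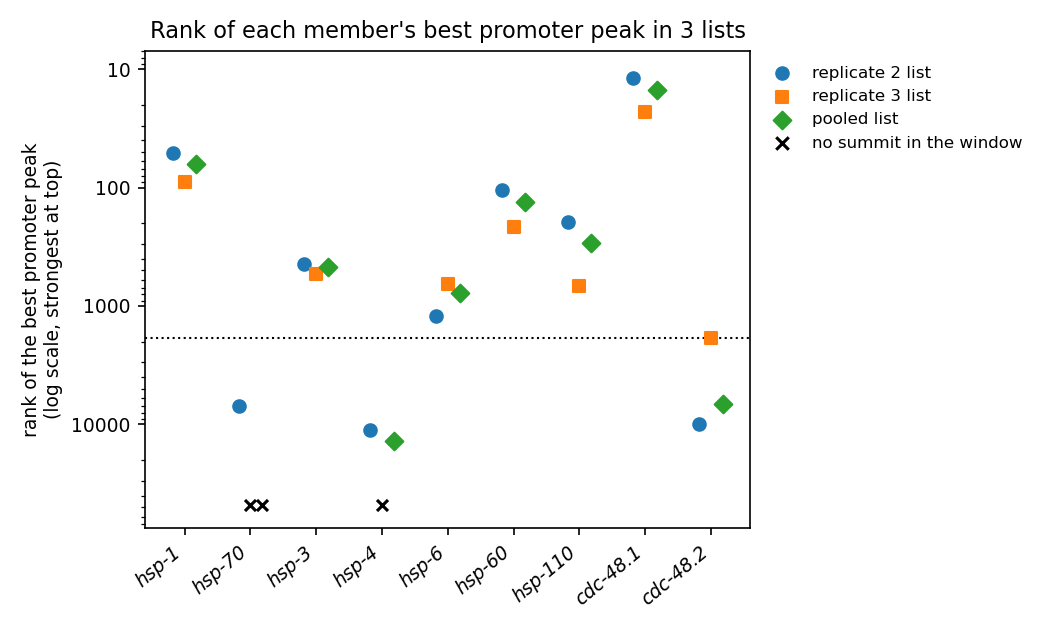
Rank of the best promoter peak of each member (log scale, strongest at the top) in the lists of replicate 2 (circles), replicate 3 (squares) and the pooled reads (diamonds), with a dotted line at rank 1850 and crosses where no summit lay in the window. The 6 occupied members stay above the line in every list, from cdc-48.1 at ranks 12, 23 and 15 to hsp-6 at ranks 1225, 648 and 782.

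With divergent neighbours at hsp-60, hsp-6 and hsp-110, 3 of the 6 members' summits (50%) lay in windows of more than 1 gene, against 459 of the 1255 IDR promoter summits (36.6%). The summits were placed precisely, with replicate summits at most 30 bp from the pooled summit in the direction of either end. Peak width differed between members. The peaks at cdc-48.1, hsp-1, hsp-60 and hsp-110 were 267, 244, 186 and 116 bp wide, and those at hsp-3 and hsp-6 had the most frequent width of the list, 436 bp. Of the 300 strongest IDR peaks, 76% had another width than 436 bp, against 4.19% of the other 1550, so the narrow widths go with the high ranks of these genes.

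Within their gene bodies the members had only weak pooled peaks. Gene bodies more than 200 bp past the outermost 5′ end held 4 summits at hsp-60, 2 each at hsp-3, hsp-110 and cdc-48.1, and 1 at hsp-1, with ranks from 8037 to 26921. The strongest of them, in hsp-3, had a signal of 36.5 and a −log10 q-value of 0.65, so these entries can be background. Bodies of hsp-6, hsp-4, hsp-70 and cdc-48.2 held none.

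The sequences under the summits show how unlike the members are in base composition and in stress-response elements. Each line gives the 161 bases from 100 bases upstream to 60 bases downstream of the IDR summit, read in the direction of the named member, from the RefSeq genome of WBcel235, the assembly of ce11. Capitals mark matches on either strand to a heat shock element (GAANNTTC or TTCNNGAA), to the heat-shock-associated sequence GGGTGTC of C. elegans, or to the core of the unfolded protein response element, TGACGTG. They lie at chrII:10563521-10563681 (minus strand), chrIV:17278489-17278649 (plus), chrIII:1619002-1619162 (plus), chrIII:8447076-8447236 (minus), chrX:6092129-6092289 (minus) and chrV:4827144-4827304 (minus), in the order printed.
cdc-48.1: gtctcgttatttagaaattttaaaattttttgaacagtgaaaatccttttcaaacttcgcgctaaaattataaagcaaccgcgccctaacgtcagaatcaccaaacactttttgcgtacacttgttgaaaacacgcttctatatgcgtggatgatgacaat
hsp-1: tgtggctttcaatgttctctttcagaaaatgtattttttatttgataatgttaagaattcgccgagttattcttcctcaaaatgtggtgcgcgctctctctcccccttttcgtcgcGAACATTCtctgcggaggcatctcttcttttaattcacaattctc
hsp-60: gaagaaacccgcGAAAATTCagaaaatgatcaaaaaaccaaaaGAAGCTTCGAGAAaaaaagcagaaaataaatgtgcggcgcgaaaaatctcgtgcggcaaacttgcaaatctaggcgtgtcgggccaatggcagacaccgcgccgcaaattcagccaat
hsp-110: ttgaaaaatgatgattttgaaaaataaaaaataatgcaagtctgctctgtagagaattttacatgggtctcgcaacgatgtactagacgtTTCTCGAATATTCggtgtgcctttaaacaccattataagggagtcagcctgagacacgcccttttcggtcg
hsp-3: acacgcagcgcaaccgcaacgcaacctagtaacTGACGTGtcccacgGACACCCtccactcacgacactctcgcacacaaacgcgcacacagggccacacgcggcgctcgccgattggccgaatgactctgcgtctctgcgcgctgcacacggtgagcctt
hsp-6: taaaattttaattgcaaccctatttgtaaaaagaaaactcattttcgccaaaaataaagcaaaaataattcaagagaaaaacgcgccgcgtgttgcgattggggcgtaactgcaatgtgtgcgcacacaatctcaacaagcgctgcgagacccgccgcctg

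Base composition spanned nearly the whole range of the IDR list. In 201 bp windows centred on the summit, GC content was 62.7% at hsp-3, higher than or equal to 99.5% of the 1850 IDR windows, and 33.8% at cdc-48.1, the strongest member, at the 7.57th percentile. The window at hsp-60 stood at the 66.5th percentile, and the others had 42.8% (hsp-6), 38.8% (hsp-1) and 37.8% (hsp-110), against a median of 44.8% over all IDR windows (quartiles 39.3 and 50.2%). Against other IDR windows, a high GC content was therefore no common feature of the members' peaks. The 500 bp upstream windows of all protein-coding genes had a lower median, 33.8% (quartiles 31 and 36.8%). The cdc-48.1 summit window equalled that median, and the summit windows of the other occupied members lay above the upper quartile. These windows differ in length from the summit windows.

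Heat shock elements with 3 alternating units were searched for as well, and among the 6 sequences above they are part of the capitals at hsp-60 and hsp-110. They are GAA, TTC and GAA units, or TTC, GAA and TTC on the other strand, each separated by any 2 bases. This motif was chosen after the sequences were seen. Within 500 bp upstream of the outermost 5′ end it was present at 4 of the 9 members (hsp-1, hsp-70, hsp-6 and hsp-110), against 3.25% of the 19973 protein-coding genes, and in 1.3% of the 201 bp IDR windows. At hsp-110 the element began 10 bp upstream of the summit and ran through it, 237 bp upstream of the 5′ end, and another lay at 115 bp upstream. At hsp-60 it began 57 bp upstream of the summit, which is too far from hsp-60 for the 500 bp window and 128 bp upstream of Y22D7AL.10. This element ended before the start of the 186 bp IDR peak, but lay inside the wider peaks of both replicates. At hsp-1 and hsp-6 the element lay outside the summit window, at 144 and 307 bp upstream of the 5′ end. The hsp-6 element was still inside its 436 bp IDR peak. The hsp-1 element was outside its IDR peak and inside the lower pooled peak with a summit at 166 bp upstream (rank 3199). The gene hsp-70 held it at 73 bp upstream of the 5′ end, with no pooled summit in the window, so members with and without a peak carried this element. Each shorter element, GAANNTTC or TTCNNGAA, was present upstream of 6 of the 9 members, against 29.8% and 29.1% of all genes.

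The shared promoter of F44E5.4 and F44E5.5 held 10 matches to the 3-unit motif upstream of each gene, some of which overlap each other. It is shown because it is the stress-inducible Hsp70 promoter with an IDR peak, from chrII:11759395-11759555 (minus strand), with capitals as above. In the 201 bp window around that summit there were 7 such matches, on both sides of the summit, and GC content was 46.8%.
F44E5.4 and F44E5.5: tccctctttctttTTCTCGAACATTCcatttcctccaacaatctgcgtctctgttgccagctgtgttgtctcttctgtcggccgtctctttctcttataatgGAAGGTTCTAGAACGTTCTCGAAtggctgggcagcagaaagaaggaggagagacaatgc

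The unfolded protein response core TGACGTG was present upstream of both ER members and of no other member, against 4.27% of all genes. At hsp-3 it began 132 bp upstream of the 5′ end and 67 bp upstream of the summit, inside the peak. At hsp-4 it began 83 bp upstream of the 5′ end, in a stretch with no IDR peak, shown here for comparison as 87 bases from chrII:7352682-7352768 (minus strand), where the core reads on the other strand. The ER paralogs thus share the element and differ in the peak.
hsp-4: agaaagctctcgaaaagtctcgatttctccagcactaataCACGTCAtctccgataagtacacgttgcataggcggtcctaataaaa

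Other sequence features varied. The heat-shock-associated sequence GGGTGTC was found at hsp-3 alone among the members (1.88% of all genes). A TATAAA match was present upstream of 5 members, against 54% of all genes. GAGAGA, found in 39.7% of the IDR windows and upstream of 30% of genes, occurred in the summit window of hsp-1 and in that of no other member. A match to letters is a description of the sequence and does not show that a factor was bound.

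The peaks next to those of the members in order of signal belonged to varied other genes. The IDR promoter peaks next above and below cdc-48.1 were those of T02E1.2 (415) and ears-2 (371), and those around hsp-1 belonged to the nucleoporin gene npp-8 and to nmad-1 (269), by difference in pooled signal. The peak at hsp-3 was followed by that of atf-6 (difference in signal 0.0922), which encodes an ER stress sensor, and preceded by that of vps-25. Neighbours of hsp-60 were C16C10.4 and nfm-1, those of hsp-110 were C03H5.3 and spas-1, and those of hsp-6 were T24H10.1 and F16B12.6. This likeness in signal follows from the choice of neighbours by signal, and it rests on 1 value per peak over 2 replicates pooled.

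Genes that work with the members were counted in 8 partner lists with 116 genes, written from general knowledge with earlier results of these data known. In all, 41 of them (35.3%) had an IDR promoter summit, against 8.51% of all protein-coding genes, with a median signal of 114 against 109 over all genes with such a summit. For 30 of the 41 the gene itself had the nearest 5′ end. Over all protein-coding genes this held for 1224 of the 1700 with an IDR promoter summit, a similar share.

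Co-chaperones of the Hsp70 cycle were among them. The counts that follow stand against 8.51% of all protein-coding genes with an IDR promoter summit. Of 29 J-domain genes, 12 had an IDR summit (41.4%), led by dnj-29 (signal 242, rank 93), a homolog of the ER translocation factor Sec63, dnj-13 (155), dnj-19 (146) and dnj-9 (129), although the summit at dnj-19 is nearest to nhr-47. Of the 12 genes for Hsp90 and co-chaperones, 6 had one, of which only 2 were themselves nearest to the summit. Among the 6 were the nucleotide exchange factor gene bag-1 (168), the Aha1 homolog ahsa-1 (123), fkb-6 (113) and the Hop homolog sti-1 (96.1). The genes C01G10.7 and F31D4.2 were nearest at ahsa-1 and fkb-6. The Hsp90 gene itself, hsp-90, had its best promoter peak at pooled rank 1882, just below the 1850 of the IDR list, a value singled out after it was seen. Of the 6 Hsp70 and Hsp110 relatives, the 2 with a summit were F44E5.4 and F44E5.5.

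Partners in the organelles were occupied as well, and their counts too stand against 8.51% of all protein-coding genes. Of 17 genes for ER folding and ER stress, 8 had an IDR summit (47.1%), led by the Grp94 homolog enpl-1 (173), the disulfide isomerase gene pdi-2 (143), atf-6 (139) and xbp-1 (121), the transcription factor of the ER stress response. Of 18 mitochondrial genes, 10 had one (55.6%), led by Y22D7AL.10 (218), whose peak is that of hsp-60, the import receptor gene tomm-20 (201), the GrpE homolog C34C12.8 (136) and the prohibitin gene phb-1 (114), where Y37E3.8 is nearest.

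Partners of CDC-48, the small heat shock proteins and the heat shock factor made up the remaining lists. Of 15 CDC-48 adaptors and relatives, 3 had an IDR summit (20%, against 8.51% of all genes), the AAA ATPase gene nsf-1 (158), the p47 homolog ubxn-2 (115) and ufd-3 (114). In the pooled list, 8 of the 15 had a summit in the window, against 39.2% of all genes. Those without one included ufd-1, npl-4.1 and npl-4.2, which encode a CDC-48 adaptor complex and were named after their values were seen. Of 16 small heat shock protein genes, 0 had an IDR summit, against 8.51% of all genes, and 7 had a pooled one, against 39.2%. Of 4 genes for the heat shock factor and its regulators, 0 had an IDR summit and 3 had a pooled one, against the same shares. The lists are small, so a count of 0 is not set apart from a share of 8.51%, and no test was made of them.

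**Figure D4:**
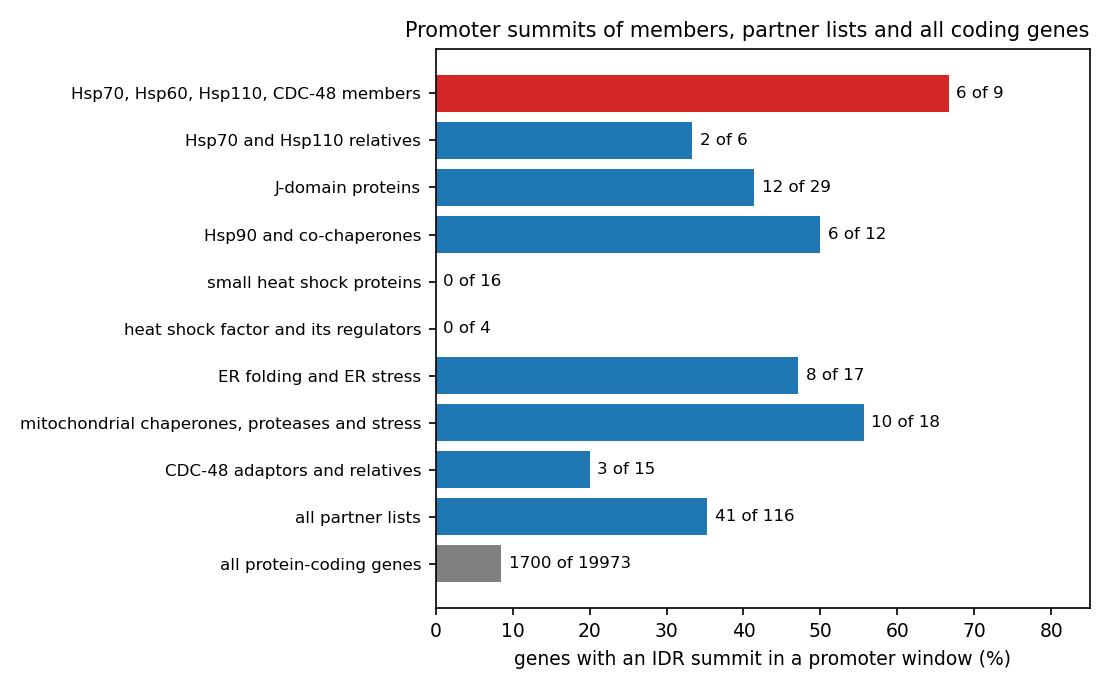
Share of genes (%) with an IDR summit in a promoter window for the members, each partner list, all partner lists together and all protein-coding genes, with the counts beside the bars. Bars run from 0 of 16 small heat shock protein genes to 6 of 9 members, with 1700 of 19973 for all protein-coding genes at the bottom.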

How the data were processed

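ChIP-seq of GFP-tagged F13C5.2 was made in 2 biological replicates of early embryos. Per the deposited file descriptions, the authors called peaks and background as input for IDR on each replicate and on both together, each against 2 control alignments, and derived the optimal IDR list from those lists. The signal score of each peak and the −log10 q-value are the authors' deposited values. The sources used here do not name the caller, the aligner, the control scaling or the threshold of the IDR. On ce11, 1692 pooled peaks tied at the highest −log10 q-value (3.53), so peaks were ranked by signal.

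Summits of the ce11 lists were placed against Ensembl release 115 (WBcel235, the same assembly). The ce10 lists were not used here. Replicate summits were matched within 100 bp, and promoter windows used every protein-coding 5′ end. Of 120 partner symbols, 2 were not matched. Python 3.11.15, numpy 2.4.6, pandas 2.3.3, Biopython 1.88 (global alignment of the longest coding sequences, identity over aligned bases) and matplotlib 3.10.9 were used. The assignment of summits was tested on simulated data. The members, lists and motifs were chosen with earlier results of these data known. Named genes were the members, the genes nearest to their summits, those next in signal, F13C5.2 and up to 4 partners of highest signal per list; hsp-90, ufd-1, npl-4.1 and npl-4.2 were added after their values were seen. The alternatives were the 925 IDR peaks of higher signal, single replicates, other windows, the outermost 5′ end and any overlap.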

Additional observations from a re-analysis of the deposited data

How the results depend on the processing

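The count of 6 members with an IDR promoter summit was 6 under 6 of the 7 alternatives and 5 with the window of 500 bp upstream to 100 bp downstream, which left out hsp-60. The 3 members nearest to their summit were 3 under each of the 6 alternatives run. The partner genes with a summit numbered 41, where 1700 of all genes were called. They numbered 23 with the 925 IDR peaks of higher signal, where 890 of all genes were called. Single replicates gave 36 to 44 partner genes, where 1470 to 1777 of all genes were called. The other alternatives gave 38 to 44, where 1387 to 2239 of all genes were called. The best rank of hsp-60 was 133 and became 21096 with the shorter window, and that of cdc-48.2 was 9894 in replicate 2 and 1882 in replicate 3. For hsp-70 the pooled list gave no rank, and for hsp-4 the replicate 3 list gave none. No paired analysis was possible because the series has 1 group. The read depth is unknown, so a weak or missing peak does not show that the protein was absent.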
